A study of Rattus norvegicus with 54 samples.

Results

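Prenatal ethanol exposure was examined in the nucleus accumbens of adolescent female Long Evans rats by comparing 4 libraries of ethanol-exposed animals with 7 libraries of diet controls. These 11 bulk RNA sequencing libraries, of 54 in the series, are those titled as female and taken at P42 (postnatal day 42), when the final adolescent exposure lay 24 h back. The exposed group (PAE-VEH) received prenatal ethanol and then water in adolescence. The control group (FCL-VEH) came from the free-choice liquid diet arm and also received water, so no animal of either group drank ethanol in adolescence. The study's pair-fed arm is not part of the accumbens set, so effects of diet intake and of ethanol cannot be told apart here. The 18 male libraries of the same age, 9 PAE-VEH and 9 FCL-VEH, served for the comparison between the sexes. No label states that libraries come from separate animals or litters, and p-values measure the spread between these libraries only.

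The nucleus accumbens is the ventral striatum, a hub of reward and motivation. Most of its neurons are GABAergic spiny projection neurons, which signal through cAMP and protein kinase A. Direct pathway neurons carry the D1 dopamine receptor, which raises cAMP, and make dynorphin and substance P. Indirect pathway neurons carry the D2 receptor, which lowers cAMP, together with an adenosine receptor, Adora2a, and make enkephalin. Opioid peptides and dopamine signalling in these cells are long-studied targets of ethanol.

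Library depth in the 11 females ran from 62.6 to 86.4 M counts. The tissue label was borne out by 20 spiny neuron markers, whose summed level was 12260 to 15388 CPM (counts scaled to a common library size) in PAE-VEH and 8371 to 14461 CPM in FCL-VEH. A pair of libraries stood apart. FCL-VEH replicate 5 held Xist, the silencing RNA of the inactive X, at 0.759 CPM against 653 to 984 CPM in the other 10, and Kdm5d, whose gene lies on the Y chromosome, at 43.8 CPM against at most 0.102 CPM. It thus went against its title and is called the library labelled FCL-VEH replicate 5. PAE-VEH replicate 4 was high in cortical excitatory neuron genes, with Slc17a7, the vesicular glutamate transporter of cortex, at 441 CPM against 20.4 to 24.9 CPM in the other PAE-VEH libraries. The cortical list had a score of 2.17 in that library and of -0.64 to -0.40 in the other 3. A score is the mean log2 CPM of a list after centring each gene. Among controls, FCL-VEH replicates 3 and 4 scored 1.16 and 0.79 on that list, and the others -1.06 to -0.17. The main results are given with and without 2 libraries, PAE-VEH replicate 4 and the library labelled FCL-VEH replicate 5. Leaving out both reversed the direction of 1 of the 96 named genes, Bdnf. The cortical list then had a median log2 fold change of -1.03, with 2 genes higher and 14 lower, so cortical levels were not evened out.

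Other neighbouring tissue also varied between the groups. The control libraries replicate 1 and replicate 5 had hypothalamic and islet of Calleja scores of 1.64 and 1.44 and myelin scores of 1.09 and 0.73. Control replicate 7 had a choroid plexus score of 2.46. In the other controls that score was -0.63 to 0.39, and in PAE-VEH it was -0.85 to 0.21. Summed over its list, the choroid plexus level was 240 to 782 CPM in PAE-VEH and 182 to 1886 CPM in FCL-VEH, ependymal cilia 159 to 672 against 466 to 1112 CPM, and septal and pallidal genes 211 to 243 against 190 to 423 CPM. All these ranges overlapped, but member genes leaned to 1 side. Lower in PAE-VEH were 13 of 13 choroid plexus genes (median log2 fold change -1.02) and 13 of 14 ependymal genes (-0.80). So were 11 of 12 septal and pallidal genes (-0.57) and 10 of 11 hypothalamic and islet of Calleja genes (-0.81). The choroid plexus values include FCL-VEH replicate 7, and no median without it is given here. The part of these tissues in the results below was examined only through a fit that carried cortical, septal and ependymal scores as covariates. In bulk tissue, fewer cells of a type and less RNA per cell cannot be told apart.

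**Figure D1:**
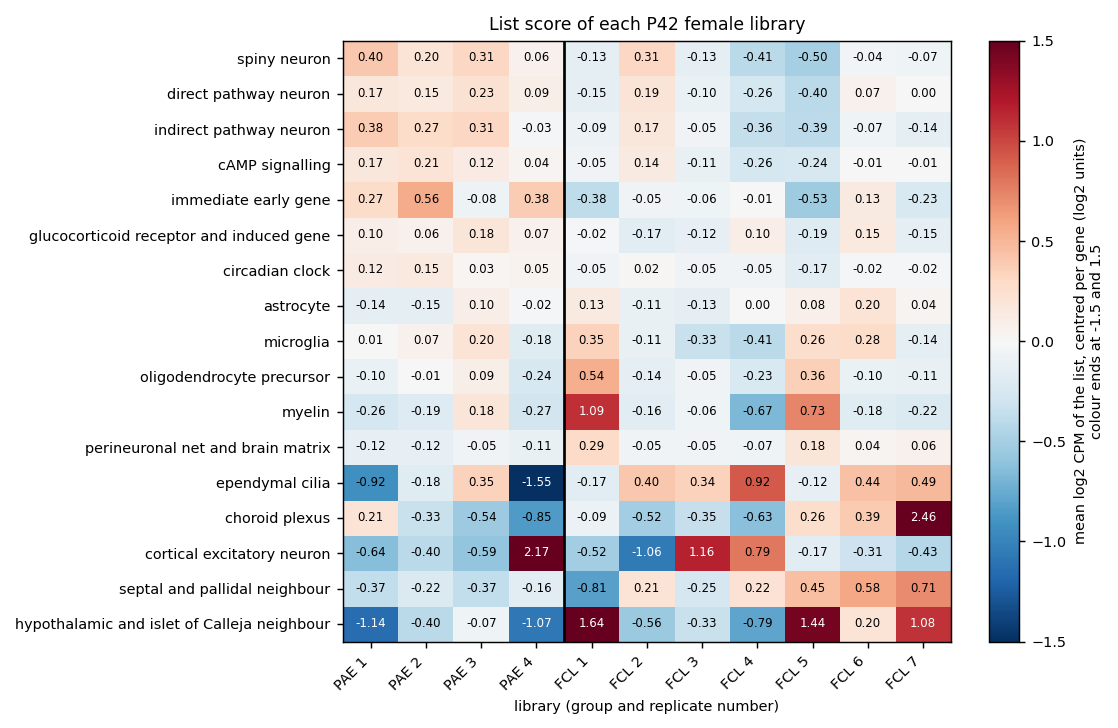
Score of 17 gene lists in each of the 11 female P42 libraries, as the mean log2 CPM of the list after centring each gene (log2 units); columns are libraries, rows are lists, and colour ends at -1.5 and 1.5 while the printed number is the score. PAE-VEH replicate 4 stands out in the cortical row at 2.17, FCL-VEH replicate 7 in the choroid plexus row at 2.46, and FCL-VEH replicate 2 reaches 0.31 in the spiny neuron row, within the PAE-VEH range of 0.06 to 0.40.

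No single gene passed the threshold. By the quasi-likelihood test of edgeR, 0 of 24741 genes were higher and 0 were lower at an adjusted p under 0.05 (0% in each direction), and the smallest adjusted p was 0.129. At an unadjusted p under 0.05, 1425 genes were higher in PAE-VEH (5.76%) and 1361 lower (5.5%). DESeq2 called 45 genes higher (0.215%) and 41 lower (0.196%), and limma with voom and sample quality weights called 28 higher (0.113%) and 8 lower (0.0323%). Without PAE-VEH replicate 4 and the library labelled FCL-VEH replicate 5, edgeR again called 0 in each direction, with a smallest adjusted p of 0.328. With the neighbouring tissue scores as covariates, edgeR's smallest adjusted p was 0.41. In that fit 713 of 24741 genes were higher and 1034 lower at an unadjusted p under 0.05, so fewer than in the main fit. In 457 genes all 4 PAE-VEH libraries lay above all 7 controls (1.85%), and in 296 all lay below (1.2%). Without the 2 libraries these counts were 902 (3.65%) and 722 (2.92%). The values that follow describe genes that did not pass edgeR's threshold, unless DESeq2 or voom is named. Counts of list members below are to be read beside these shares over all genes.

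Enkephalin stood at the head of the striatal genes. Penk, the precursor of the enkephalins (chr5:21981381-21987074, minus strand), was at 892, 1087, 1573 and 1645 CPM in the 4 PAE-VEH libraries. In the 7 controls it ran from 558 through a median of 767 to 959 CPM. The groups overlapped only because PAE-VEH replicate 4, the lowest of its group, lay below the highest control. The log2 fold change was 0.77 ± 0.18 (SE; edgeR adjusted p = 0.147), a fold of 1.71 with a 95% interval of 1.34 to 2.18. DESeq2 and voom put Penk past the threshold, with an adjusted p of 0.0199 and 0.048. Without the 2 libraries the change was 0.89, and the 3 remaining PAE-VEH libraries lay above all 6 controls. With the neighbouring tissue scores as covariates the change was 0.55. Per transcript length, in the authors' FPKM, the Penk level had a median of 660 in PAE-VEH and 385 in FCL-VEH, and Pdyn one of 98.7 and 66.6, so the enkephalin precursor was the more abundant of the 2 in both groups.

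Drd2, Adora2a and Gpr6, also markers of indirect pathway neurons, lay in the same direction with smaller differences. Drd2, the D2 dopamine receptor, was at 188, 212, 230 and 262 CPM in PAE-VEH and at 122 to 208 CPM in controls, with a median of 163 CPM (log2 fold change 0.49 ± 0.17). Adora2a, which encodes that adenosine receptor, was at 321, 399, 420 and 445 CPM against a control median of 287 CPM and a highest control of 367 CPM (0.49 ± 0.19). Gpr6, a receptor that couples to Gs, was at 93.3, 110.5, 124.1 and 126.4 CPM against 61.1 to 95.98 CPM in controls (0.54 ± 0.18). In each of the 3, only PAE-VEH replicate 4 lay within the control range, and the groups separated without the 2 libraries (0.51 for Drd2, 0.54 for Adora2a, 0.58 for Gpr6). Over the 7 genes of the list 6 were higher, 4 of them at an unadjusted p under 0.05, with a median of 0.49 beside -0.026 over all genes tested. That median was 0.51 without the 2 libraries and 0.39 with the neighbouring tissue scores as covariates.

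Direct pathway neurons showed differences of like size in their peptides and a smaller one in their receptor. Pdyn, the dynorphin precursor, was at 212, 222, 265 and 267 CPM in PAE-VEH and at 136 to 202 CPM in controls, with a median of 164 CPM, so that all 4 libraries lay above all 7 (0.49 ± 0.15; edgeR adjusted p = 0.236). Tac1, the substance P precursor, was at 158, 205, 223 and 241 CPM against 104.7 to 207 CPM (0.49 ± 0.20), and its groups overlapped. Drd1, the D1 receptor, was at 298, 366, 413 and 417 CPM against 200.5 to 418 CPM in controls (0.32 ± 0.18; 0.34 without the 2 libraries). Its groups overlapped, and PAE-VEH replicate 4, at 297.7 CPM, lay just below the control median of 298.4 CPM. Chrm4, the M4 muscarinic receptor (0.39 ± 0.15), and Slc35d3 (0.35 ± 0.16), a nucleotide sugar transporter family member, also overlapped between the groups. Of the 8 genes in this list 6 were higher and 4 had an unadjusted p under 0.05, with a median of 0.34. That median was 0.37 without the 2 libraries, 0.27 without the library labelled FCL-VEH replicate 5 alone and 0.20 with covariates.

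All 20 general spiny neuron genes were higher in PAE-VEH, against 45.5% of all genes tested with a positive fold change. Of the 20, 14 had an unadjusted p under 0.05, against 5.76% of all genes higher at that level. None of the 20 separated the groups. Ppp1r1b, or DARPP-32, the phosphatase inhibitor through which dopamine acts in these cells, was at 1624, 1977, 2155 and 2157 CPM against 1065 to 1818 CPM in controls, with a median of 1462 CPM (0.51 ± 0.17; edgeR adjusted p = 0.256). Arpp21, a cAMP-regulated phosphoprotein (0.43 ± 0.14), Rasgrp2, an exchange factor for Rap GTPases (0.46 ± 0.16), and Rasd2, a small GTPase enriched in striatum (0.44 ± 0.17), overlapped only because PAE-VEH replicate 4 lay below FCL-VEH replicate 2. The list median was 0.34, and 0.31 to 0.43 when any 1 of the 11 libraries was left out. Without the 2 libraries it was 0.37, with 20 of 20 higher and 5 separating the groups (3.65% of all genes did so upward). With the neighbouring tissue scores as covariates it was 0.29.

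**Figure D2:**
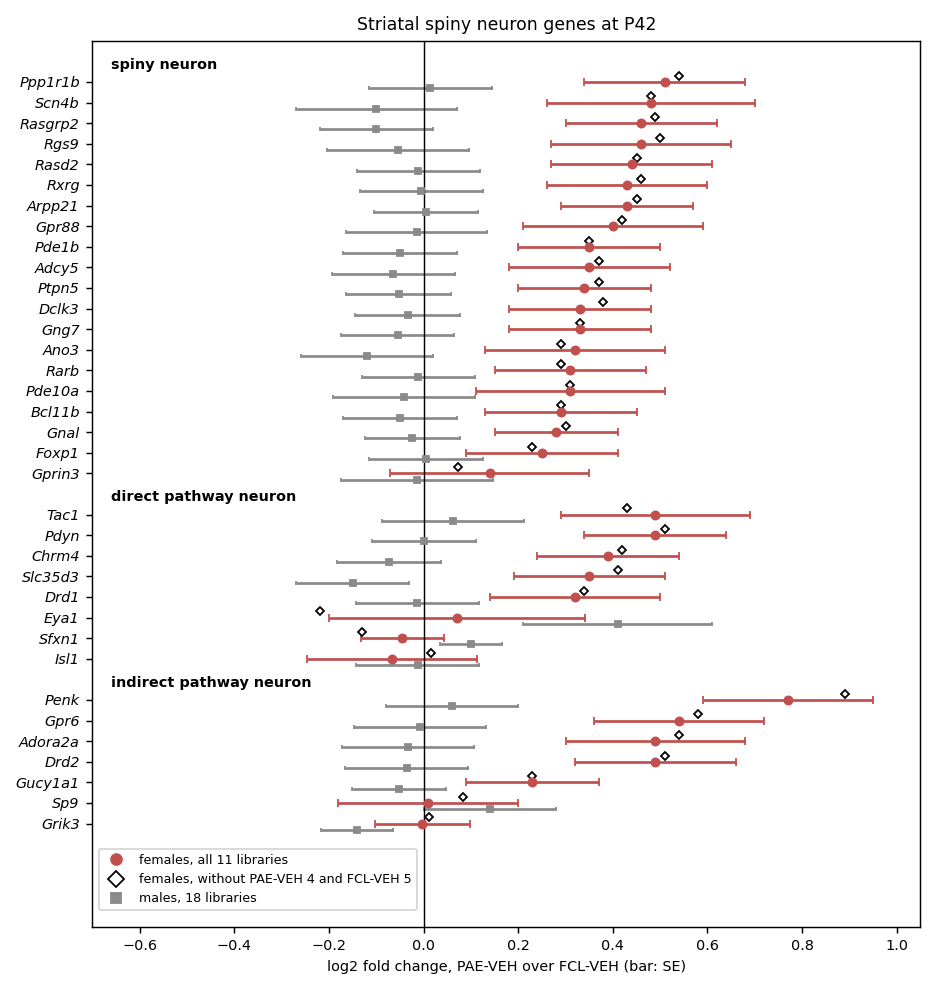
Log2 fold change of PAE-VEH over FCL-VEH (horizontal axis) for each gene of the spiny, direct pathway and indirect pathway lists; red circles are the 11 female libraries with the SE as a bar, open diamonds the same without PAE-VEH replicate 4 and the library labelled FCL-VEH replicate 5, and grey squares the 18 male libraries with the SE. All 20 spiny neuron genes lie right of 0 in females, with a median of 0.34, and the male values centre near 0, with a median of -0.038.

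The cAMP signalling list, which shares members such as Ppp1r1b with the spiny neuron list, had 20 of 24 genes higher (median 0.26, and 0.29 without the 2 libraries). Of these, 12 had an unadjusted p under 0.05, against 5.76% of all genes higher at that level. Pde2a, a phosphodiesterase stimulated by cGMP, was at 672, 680, 764 and 793 CPM against 503.6 to 655 CPM in controls, with a median of 566 CPM. All 4 PAE-VEH libraries lay above all controls (0.35 ± 0.09; edgeR adjusted p = 0.147, DESeq2 0.0397, voom 0.0531). The cAMP phosphodiesterases Pde4b (0.18 ± 0.07) and Pde8b (0.26 ± 0.10) overlapped between groups.

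Of 12 dopamine system genes, which include Drd1 and Drd2 among the 5 dopamine receptors, 5 were higher and 7 lower, with a median of -0.12 (-0.22 without the 2 libraries, -0.032 with covariates). Maob, a monoamine oxidase, had a change of -0.26 ± 0.16, which turned to 0.032 with 2 surrogate variables in the fit. In the opioid system, 8 of 11 genes were higher and 3 lower, with a median of 0.24 (0.14 without PAE-VEH replicate 4). Oprd1, the delta opioid receptor, was at 6.04, 6.74, 6.84 and 7.79 CPM, above all controls at 3.17 to 5.6 CPM with a median of 5.04 CPM (0.48 ± 0.17). Pnoc, the nociceptin precursor, was at 5.38, 5.40, 5.54 and 7.61 CPM against 6.84 to 14.1 CPM (-0.78 ± 0.26), and only PAE-VEH replicate 2 reached the control range. Oprm1, the mu opioid receptor, was at 6.996 to 8.33 CPM against 7.85 to 10.6 CPM and overlapped (-0.26 ± 0.18).

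Genes most like Penk were sought across the 11 libraries among 12608 genes with a mean of at least 5 CPM. The highest Pearson correlations of log2 CPM were those of Rapgef2 (0.974), Pde2a (0.967), Mapk4 (0.962), Cacnb1 (0.959), Dtnb (0.957), Trpm2 (0.955), Sema3f (0.954), Wscd2 (0.95) and Tamalin (0.95). Drd2 stood at 0.934, Gpr6 at 0.894, Adora2a at 0.884 and Ppp1r1b at 0.879, above Pdyn at 0.806, Drd1 at 0.742 and Nr4a1 at 0.686. Without the 2 libraries Drd2 reached 0.964 and Pde2a 0.991. These values describe the 11 libraries, which share a tissue dissection and the difference between the groups.

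Immediate early genes, transcription factors and regulators induced within minutes of neuronal activity, were higher in 21 of 22 cases, with 13 at an unadjusted p under 0.05 (5.76% of all genes). Nr4a1, an orphan nuclear receptor, Egr4, a zinc finger factor, and Fosb, an AP-1 subunit, were the 3 that separated the groups (1.85% of all genes did so upward). Many such genes answer to cAMP through CREB, which binds the palindrome TGACGTCA or its half-site CGTCA. RefSeq promoter windows (build GRCr8, 250 bases before to 50 after a transcript start) of 2 of these genes and of Gpr6 are shown because they hold these letters. Capitals mark CGTCA on either strand, extended to TGCGTCA or TGACGTCA where those letters continue. They are printed 5′ to 3′ on the gene's strand.
Nr4a1: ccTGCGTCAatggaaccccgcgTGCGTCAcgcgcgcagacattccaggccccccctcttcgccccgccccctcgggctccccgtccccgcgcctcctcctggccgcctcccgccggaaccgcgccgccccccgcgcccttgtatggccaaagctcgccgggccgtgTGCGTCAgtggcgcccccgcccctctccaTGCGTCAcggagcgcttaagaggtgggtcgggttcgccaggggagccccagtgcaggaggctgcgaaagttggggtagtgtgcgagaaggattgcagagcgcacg
Egr4: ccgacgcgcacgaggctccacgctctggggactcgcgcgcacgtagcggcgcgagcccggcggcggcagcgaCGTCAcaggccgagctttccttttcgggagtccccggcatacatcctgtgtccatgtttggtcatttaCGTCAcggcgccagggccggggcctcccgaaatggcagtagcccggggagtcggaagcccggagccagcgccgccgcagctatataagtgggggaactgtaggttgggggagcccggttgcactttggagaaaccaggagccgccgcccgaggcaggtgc
Gpr6: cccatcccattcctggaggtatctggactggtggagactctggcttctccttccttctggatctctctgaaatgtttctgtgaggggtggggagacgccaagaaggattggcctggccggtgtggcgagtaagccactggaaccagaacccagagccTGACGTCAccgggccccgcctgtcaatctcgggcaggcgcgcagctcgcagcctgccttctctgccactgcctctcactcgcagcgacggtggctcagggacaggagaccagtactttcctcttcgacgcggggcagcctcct

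The Nr4a1 window (chr7:134259888-134260187, plus strand) held 4 copies of TGCGTCA, each of which contains CGTCA. It lies inside the gene as the deposited table gives it (chr7:134247153-134268044), and not at that table's gene start. The Egr4 window (chr4:119607768-119608067, minus strand) held 2 copies of CGTCA, and the Gpr6 window (chr20:46075202-46075501, minus strand) held 1 TGACGTCA. Of 33469 promoter windows in the table, 21.2% held CGTCA on either strand, 1.9% TGCGTCA and 1.83% TGACGTCA. Among the 17 immediate early genes with an entry 11 held CGTCA, and among 16 spiny neuron genes with an entry 2 did. A listed gene was counted if any of its windows matched, whereas the shares above are per window, so the 2 are not like for like. A match describes these letters only and shows no binding.

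Nr4a1 was at 47.3, 70.6, 72.4 and 87.4 CPM in PAE-VEH. Controls ran from 19.1 through a median of 34.8 to 47.3 CPM, so all 4 lay above all 7, but PAE-VEH replicate 3 only just. The log2 fold change was 1.06 ± 0.26 (edgeR adjusted p = 0.147, DESeq2 0.0613, voom 0.0531), a fold of 2.08 with a 95% interval of 1.47 to 2.95, and 0.96 without the 2 libraries. Egr4 was at 30.3, 34.8, 37.2 and 73.2 CPM against 18.2 to 28.7 CPM in controls, with a median of 25 CPM (0.84 ± 0.21). The highest value was PAE-VEH replicate 2, and the 3 others still lay above every control. DESeq2 put Egr4 past the threshold (adjusted p = 0.0324), and voom did not (adjusted p = 0.08045).

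Fosb was at 6.16, 6.83, 8.03 and 12.2 CPM against 3.67 to 6.06 CPM (0.76 ± 0.21; 0.79 without the 2 libraries). Egr1, at 139, 160, 178 and 263 CPM against 87.1 to 155 CPM, overlapped through PAE-VEH replicate 3 (0.60 ± 0.19). Fos itself overlapped, at 7.17 to 10.99 CPM against 4.73 to 11.6 CPM (0.31 ± 0.33). The library scores of the list were 0.27, 0.56, -0.08 and 0.38 in PAE-VEH replicates 1 to 4 and -0.53 to 0.13 in controls. The list median was 0.45 with all libraries and 0.35 without the 2, when 18 genes were higher and 4 lower, 10 of the higher ones at an unadjusted p under 0.05. In males it was 0.17, with 18 of 22 higher.

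**Figure D3:**
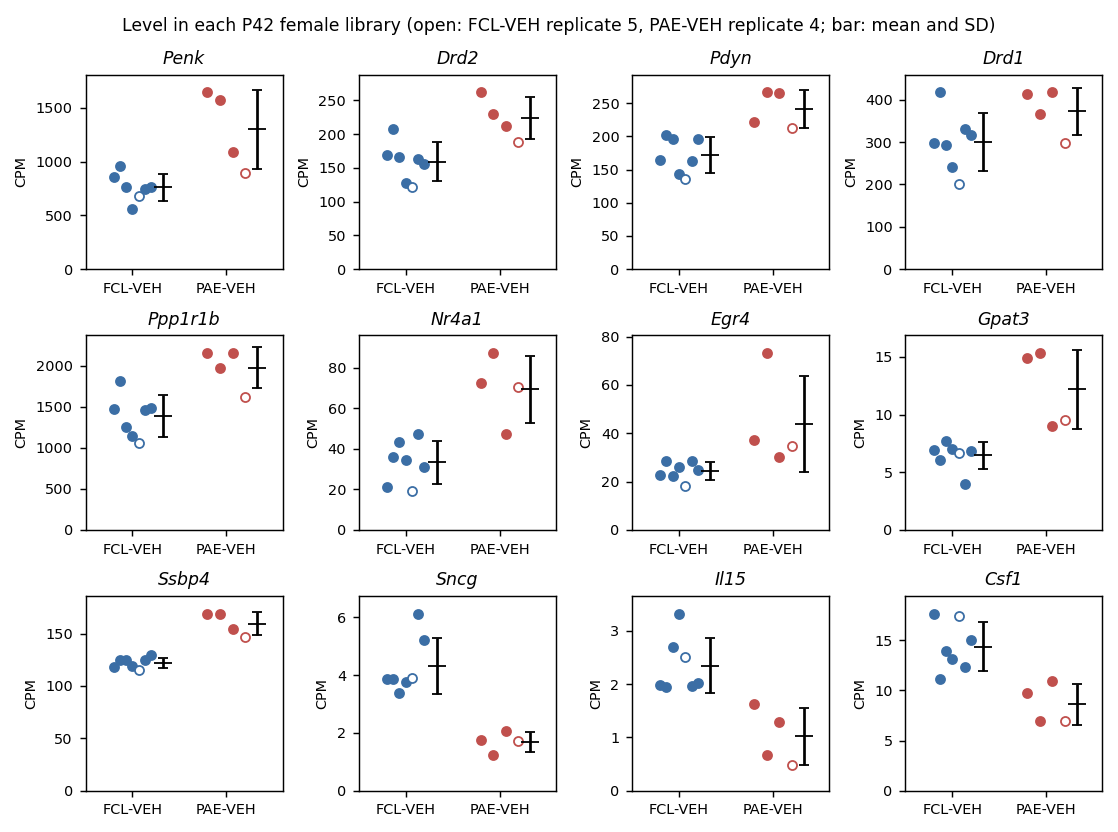
Level in CPM (vertical axis, from 0) of 12 genes in each FCL-VEH (blue, 7) and PAE-VEH (red, 4) female library at P42, with the mean and SD as a black bar; open symbols are the library labelled FCL-VEH replicate 5 and PAE-VEH replicate 4. Pdyn, Nr4a1, Egr4, Gpat3 and Ssbp4 lie above all controls in the 4 PAE-VEH libraries, Sncg, Il15 and Csf1 lie below all of them, and Penk, Drd2, Drd1 and Ppp1r1b overlap.

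Glucocorticoid-induced and clock genes were described because prenatal ethanol is known to alter stress hormone and circadian regulation. Of 16 glucocorticoid receptor and induced genes 13 were higher (median 0.19; 5 higher and 1 lower at an unadjusted p under 0.05). Males had a like lean, with 14 of 16 higher and a median of 0.15. Fkbp5, a co-chaperone that restrains the glucocorticoid receptor, was at 65.8, 70.9, 72.3 and 73.9 CPM against 51.98 to 65.5 CPM in controls, with a median of 55.1 CPM, and did not overlap (0.29 ± 0.12; edgeR adjusted p = 0.346). Sgk1, a kinase induced by corticosterone, was at 45.5, 54.1, 62.7 and 63.2 CPM against 35.9 to 49.6 CPM and overlapped (0.42 ± 0.13). Ddit4, an inhibitor of mTORC1, was at 50.7 to 63.2 CPM against 46.5 to 55.2 CPM, with PAE-VEH replicate 4 in the control range (0.21 ± 0.07; 0.15 ± 0.05 in males).

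Of 15 circadian clock genes 12 were higher, 7 of them at an unadjusted p under 0.05 (5.76% of all genes), with a median of 0.10. Per1, which belongs to both lists, was at 87.7, 97.3, 100.3 and 143.6 CPM against 71.3 to 91.02 CPM (0.41 ± 0.13). The PAR domain factor Tef, an output regulator of the clock, was at 450, 461, 464 and 493 CPM, above all controls at 369 to 444 CPM (0.20 ± 0.08). Its relative Hlf (0.32 ± 0.12) and Npas2, which pairs with Bmal1 (0.30 ± 0.11), overlapped. The labels give no hour of collection, and whether it differed between the groups was not tested.

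Receptors and channels of excitatory synapses leaned upward in part. Of 26 glutamate receptor and scaffold genes 18 were higher and 8 lower, with a median of 0.12 and 3 that separated the groups upward (1.85% of all genes). Grik5, a kainate receptor subunit, was at 225, 229, 230 and 252 CPM against 178 to 217 CPM in controls, with a median of 189 CPM (0.28 ± 0.06; edgeR adjusted p = 0.129, DESeq2 0.015, voom 0.0341). Dlg4, the scaffold PSD-95, was at 1074, 1086, 1096 and 1159 CPM against 761 to 1028 CPM (0.27 ± 0.08). Grin1, the obligatory NMDA receptor subunit, was at 580, 583, 603 and 647 CPM against 457 to 558 CPM (0.25 ± 0.07). In both, every PAE-VEH library lay above every control.

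Inhibitory receptor genes had no common direction, with 7 of 16 GABA genes higher and 9 lower (median -0.007). Gabrd, the delta subunit of GABA-A receptors outside the synapse, was at 62.6, 69.2, 70.4 and 77.8 CPM against 37.4 to 62.4 CPM and separated the groups by a narrow margin (0.48 ± 0.15; 0.27 with covariates). Gabra4, its frequent partner, overlapped (0.32 ± 0.12). Among 21 potassium channel genes 16 were higher (median 0.21, and 0.12 with covariates). Kcnj4, an inward rectifier, was at 136.4, 137, 143.7 and 154.4 CPM against 82.5 to 125 CPM (0.45 ± 0.14; 0.28 with covariates), and lay above all controls in 4 of 4 libraries. Kcnj10, the inward rectifier of astrocytes, lay the other way, at 219 to 246 CPM against 226 to 346 CPM (-0.25 ± 0.08). Of 19 voltage-gated calcium and sodium channel genes 17 were higher (median 0.16), such as the P/Q channel Cacna1a (0.18 ± 0.06) and the T-type channel Cacna1i (0.27 ± 0.10), both with overlap.

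Of 10 neurotrophin list genes 6 were higher and 4 lower. Vgf, a secreted neuropeptide precursor, was at 217, 228, 230 and 278 CPM against 151.8 to 198 CPM in controls and did not overlap (0.40 ± 0.12; 0.39 without the 2 libraries). Bdnf, by contrast, was at 0.26, 0.35 and 0.369 CPM in 3 PAE-VEH libraries and at 7.1 CPM in the cortex-rich replicate 4, against 0.436 to 3.10 CPM in controls. Its log2 fold change was 0.33 ± 1.0 with all libraries and -2.29 without replicate 4. Cortical genes moved with it in that comparison, since the median of the cortical list was 0.58 with all libraries and -0.96 without replicate 4. The 3 PAE-VEH libraries left had cortical scores of -0.64 to -0.40, and FCL-VEH replicates 3 and 4 had 1.16 and 0.79. With the neighbouring tissue scores as covariates the Bdnf change was negative as well. The part of cortical genes in the Bdnf values was not tested. Ntrk2, the receptor of Bdnf, was at 667 to 877 CPM against 837 to 980 CPM (-0.19 ± 0.09; -0.068 with covariates).

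The 12 named genes with the smallest p on the higher side had log2 fold changes of 0.28 to 0.92. Ssbp4, a single-stranded DNA-binding protein (chr16:18862007-18872917), was at 146.6, 154.6, 168.2 and 168.7 CPM against 115.5 to 129.3 CPM in controls, with a median of 124.4 CPM (0.38 ± 0.07; edgeR adjusted p = 0.129, DESeq2 0.0042, voom 0.0341). The groups were apart by more than the whole control range. Gpat3, which starts glycerolipid synthesis by acylating glycerol-3-phosphate, had the largest change of the 12, at 8.98, 9.52, 14.9 and 15.3 CPM against 4.01 to 7.70 CPM with a median of 6.83 CPM (0.92 ± 0.19; 1.03 without the 2 libraries). Its fold was 1.89 with a 95% interval of 1.46 to 2.44, not corrected for the choice of this gene by its small p. The other 16 genes of glycerolipid synthesis and droplets did not follow it as a group, since the list of 17 had 11 higher and 6 lower with a median of 0.055.

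Ajm1, an apical junction protein, was at 159.8, 160, 164 and 190.8 CPM against a control median of 135.1 CPM and a highest control of 143.1 CPM (0.33 ± 0.07). Adgrb2, an adhesion receptor (0.32 ± 0.07), Mpp3, a membrane scaffold (0.43 ± 0.09), the kinase Hipk4 (0.43 ± 0.10), Syt5, a synaptotagmin (0.40 ± 0.09), Dmtf1, a Myb-like factor (0.31 ± 0.07), the adaptor Shc2 (0.36 ± 0.08) and Slc25a25, a mitochondrial ATP-Mg carrier (0.48 ± 0.11), also lay above all controls in 4 of 4 libraries. Prrt2, a presynaptic protein, overlapped with FCL-VEH replicate 2 (0.28 ± 0.06). Lamp5, a vesicle protein of some interneurons and cortical cells that sits on the cortical list, was at 122 to 147 CPM against 80.1 to 125 CPM (0.50 ± 0.12), and its change was 0.51 without the 2 libraries, unlike that of the list. Leaving out both libraries brought Ccsap (0.45), Yrdc (0.34) and Ubald1 (0.36) among the 10 smallest p on the higher side. They lay above all controls with all libraries as well.

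On the lower side the 12 named genes had changes of -0.22 to -1.34. Sncg, gamma-synuclein (chr16:9706765-9712072), was at 1.24, 1.73, 1.77 and 2.05 CPM against 3.40 to 6.12 CPM in controls, with a median of 3.89 CPM (-1.34 ± 0.28; edgeR adjusted p = 0.129, DESeq2 0.00368, voom 0.0432). Every PAE-VEH library lay below every control, and the fold was 0.394 with a 95% interval of 0.27 to 0.576. Rb1, the retinoblastoma cell cycle regulator, was at 42.4, 44.4, 47.03 and 47.9 CPM against 52.9 to 58.2 CPM (-0.29 ± 0.06). Plch1, a phospholipase C, was at 15.8, 18.4, 18.9 and 25.6 CPM against 28.99 to 50.7 CPM (-0.89 ± 0.20; -0.54 with covariates). Both separated the groups, with DESeq2 adjusted p of 0.0107 and 0.00942.

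Plcb4, another phospholipase C (-0.59 ± 0.14), Syne3, a nuclear envelope protein (-0.85 ± 0.21), Usp6nl, a Rab GTPase regulator (-0.33 ± 0.08), and Rnf182, a ubiquitin ligase (-0.71 ± 0.18), also lay below all controls. Kcnj16, an inward rectifier that pairs with Kcnj10, was at 10.98, 11.2, 15.2 and 15.4 CPM against 19.4 to 33.7 CPM (-1.08 ± 0.26; -0.94 without the 2 libraries). Stt3a, of the oligosaccharyltransferase (-0.22 ± 0.05), and Rdx, radixin (-0.30 ± 0.08), overlapped. Colgalt2, a collagen galactosyltransferase, had -0.66 ± 0.21 with all libraries and -1.03 without the 2, when its groups separated. Shisa6, an AMPA receptor partner, had -1.03 ± 0.32 and -1.38.

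**Figure D4:**
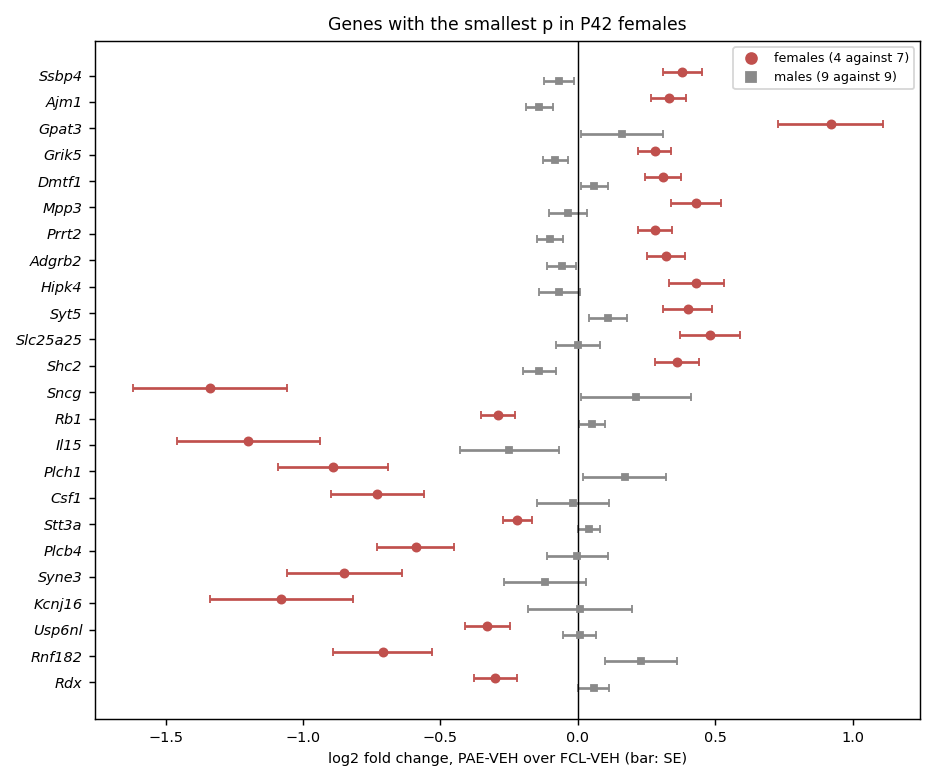
Log2 fold change of PAE-VEH over FCL-VEH (horizontal axis) with its SE as a bar, for the 12 higher and 12 lower genes of smallest p in P42 females; red circles are females (4 against 7 libraries) and grey squares males (9 against 9). Female values run from 0.28 to 0.92 above and from -0.22 to -1.34 below 0, and the male values lie between -0.25 and 0.23.

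Cytokine and cytokine receptor genes were mixed. Of 19 tested, 8 were higher and 11 lower. At an unadjusted p under 0.05 were 3 higher and 4 lower (5.76% and 5.5% of all genes). Below all controls lay 2 of the 19 (1.2% of all genes). The list median was -0.079 with all libraries, 0.017 without the 2 libraries and -0.18 with covariates. Il15, which sustains lymphocytes, was at 0.482, 0.67, 1.30 and 1.63 CPM against 1.95 to 3.31 CPM in controls, with a median of 2.02 CPM (-1.20 ± 0.26; -0.95 without the 2 libraries). Csf1, a growth factor of microglia, was at 6.92, 6.93, 9.73 and 10.95 CPM against 11.2 to 17.6 CPM (-0.73 ± 0.17; -0.59 without the 2 libraries). DESeq2 placed both past the threshold, with adjusted p of 0.00427 and 0.0152, and voom Il15 alone of the 2 (adjusted p = 0.0494). Il18 overlapped (-0.66 ± 0.23), and Cx3cl1, the neuronal chemokine, was at 649 to 731 CPM against 446 to 667 CPM (0.35 ± 0.11).

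Microglial markers did not go with these growth factors. Of 16, 9 were higher and 7 lower, with a median of 0.012, and none of the 16 lay above all controls. Without the 2 libraries 13 were higher and 3 lower, with a median of 0.15, and with covariates the median was -0.078. Sall1, a transcription factor of microglia, was the 1 that lay below all controls, at 34.3, 39.1, 40.4 and 44.9 CPM against 48.1 to 61.1 CPM (-0.38 ± 0.11). Interferon response genes were lower in 17 of 20 cases with a median of -0.15, and 3 had an unadjusted p under 0.05, such as Stat2 (-0.25 ± 0.09).

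Matrix genes leaned downward. Of 20 perineuronal net and brain matrix genes 14 were lower, against 54.5% of all genes tested. At an unadjusted p under 0.05 were 5 of them, against 5.5% of all genes lower at that level. The list median was -0.26 (-0.24 without the 2 libraries, -0.20 with covariates, -0.18 without FCL-VEH replicate 1). Ptprz1, a receptor phosphatase and proteoglycan of glia, was at 349, 350, 373 and 393 CPM against 410 to 466 CPM in controls, with a median of 449 CPM (-0.27 ± 0.08; edgeR adjusted p = 0.216, voom 0.0494). Tnr, tenascin-R of perineuronal nets, was at 243, 244, 265 and 277 CPM against 281 to 350 CPM (-0.24 ± 0.09). Vcan, versican, was at 47.04, 48.9, 53.1 and 54.1 CPM against 56.1 to 72.02 CPM (-0.31 ± 0.14). These 3 separated the groups with and without the 2 libraries (1.2% and 2.92% of all genes did so downward). Ptprz1, Tnr and Vcan are also made by oligodendrocyte precursors, whose list had 12 of 14 genes lower with a median of -0.16, and of -0.001 without the 2 libraries. Tns3, of that lineage, had -0.26 ± 0.10 with overlap.

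Myelin genes were lower in 19 of 19 cases, though none had an unadjusted p under 0.05. Their median of -0.31 was -0.10 without FCL-VEH replicate 1 and -0.19 without the library labelled replicate 5, the 2 controls with the highest myelin scores. Of 15 astrocyte genes 8 were lower (median -0.040). Fabp7, a lipid carrier of glia, was at 45.7, 46.9, 64.3 and 70.2 CPM against 55.8 to 94.4 CPM (-0.40 ± 0.13), and Aqp4, the water channel of astrocyte endfeet, had -0.22 ± 0.10. Cholesterol synthesis genes were lower in 17 of 22 cases with a median of -0.078 (-0.16 with covariates), among them Sqle (-0.25 ± 0.10).

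All 20 oxidative phosphorylation genes were higher, by a median of 0.11, and 2 of them had an unadjusted p under 0.05. With covariates the median was 0.034. They were also higher in 20 of 20 cases in males, by a median of 0.091. Atp5mc1, a subunit of the ATP synthase, was at 92.6, 99.02, 99.8 and 102.2 CPM against 68.04 to 88.5 CPM (0.32 ± 0.10), above all controls. GABAergic interneuron genes had 8 of 12 higher and a median of 0.28, but of 0.018 without the 2 libraries. Sst, the somatostatin precursor, was at 101.8, 108.4, 117.8 and 120.8 CPM, above all controls at 75.02 to 100.5 CPM (0.32 ± 0.17; 0.14 with covariates). Calb2, calretinin, was at 19.9, 20.1, 21.6 and 23.7 CPM against 23.5 to 57.4 CPM (-0.94 ± 0.34), and overlapped by 1 library of each group.

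**Figure D5:**
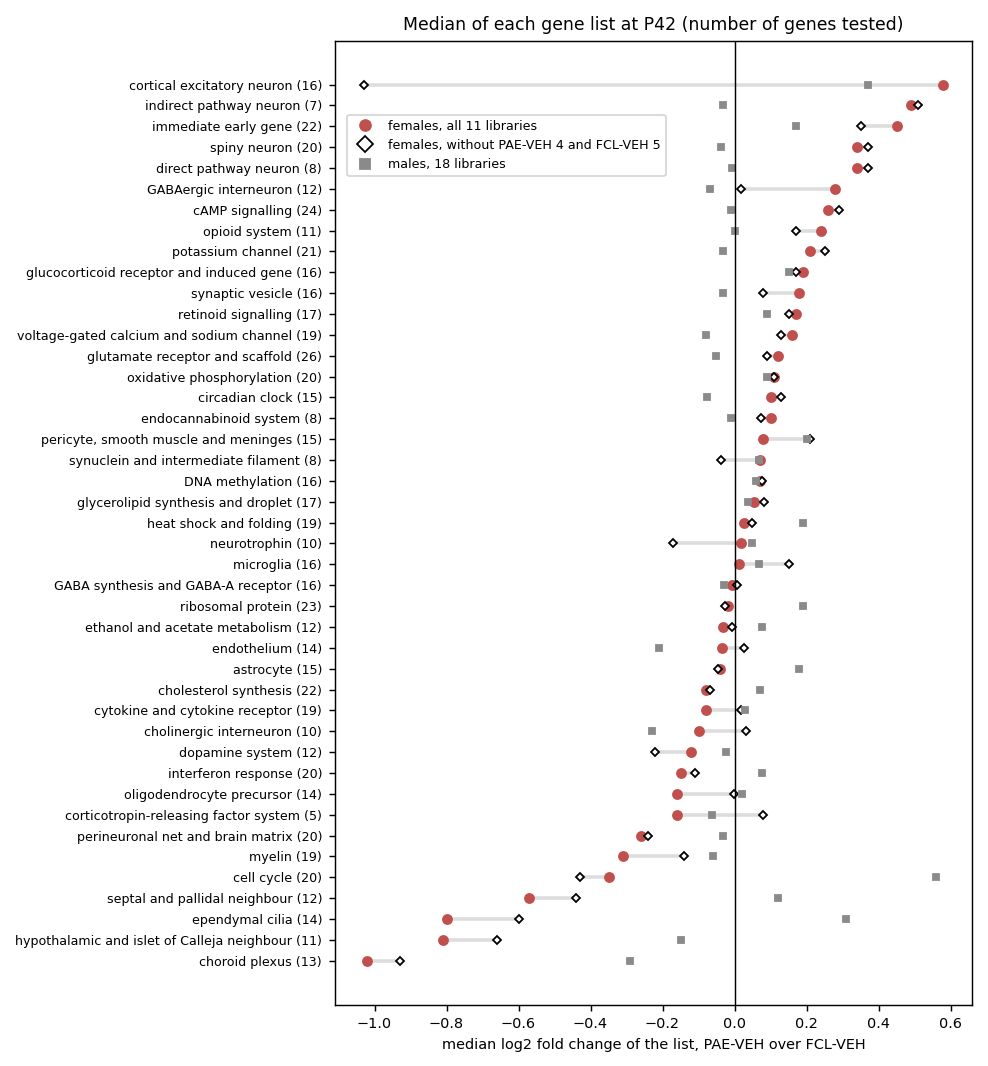
Median log2 fold change of PAE-VEH over FCL-VEH (horizontal axis) for each of 43 gene lists, with the number of genes tested in brackets; red circles are all 11 female libraries, open diamonds the females without PAE-VEH replicate 4 and the library labelled FCL-VEH replicate 5, and grey squares the 18 males. The spiny neuron, indirect pathway and immediate early gene medians stay right of 0 in females with and without the 2 libraries (0.34 and 0.37, 0.49 and 0.51, 0.45 and 0.35), and the cortical median turns from 0.58 to -1.03.

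The female and the male effect of prenatal ethanol were then compared in 1 model. By edgeR, 0 of 24741 genes differed between the sexes in either direction (0%), with a smallest adjusted p of 0.0721 and with 1071 genes above and 1546 below at an unadjusted p under 0.05 (4.33% and 6.25%). DESeq2 called 38 (0.277%) and 34 (0.248%), and voom 51 (0.206%) and 30 (0.121%). Of the 18 male libraries 2 carried sex markers against their titles, FCL-VEH male replicate 8 and PAE-VEH male replicate 5. The male and the female minus male values of named genes and lists include them. Without these 2 and the female library labelled FCL-VEH replicate 5, edgeR called 1 gene above and 0 below. Leaving out 1 female library gave 2 above without FCL-VEH replicate 2, 4 above and 3 below without FCL-VEH replicate 3, 1 above and 2 below without PAE-VEH replicate 3, and 1 below without FCL-VEH replicate 1.

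Ajm1 had the smallest p of this comparison. In males it was at 136.9 ± 9.84 CPM in PAE-VEH and 150.9 ± 12.1 CPM in FCL-VEH (SD, n = 9 each), a change of -0.14 ± 0.05 against 0.33 ± 0.07 in females. The difference was 0.47 ± 0.08 (edgeR adjusted p = 0.0721, DESeq2 0.000796). Ssbp4 (0.45 ± 0.09), Prrt2 (0.38 ± 0.08), Shc2 (0.50 ± 0.10), Grik5 (0.36 ± 0.08) and Rps6kl1 (0.39 ± 0.08), a kinase-like protein, followed, with male changes of -0.069, -0.10, -0.14, -0.082 and -0.11.

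On the other side stood Fabp7, which was higher in exposed males, at 77.8 ± 10.5 against 55.7 ± 4.48 CPM, and lower in exposed females. The female minus male difference was -0.88 ± 0.16 (edgeR adjusted p = 0.0822, DESeq2 0.000796). Dbi, an acyl-CoA binding protein of glia (-0.64 ± 0.13), Hmgb1, a chromatin protein (-0.39 ± 0.08), and H3f3b, a histone H3.3 gene (-0.35 ± 0.08), had male changes of 0.36, 0.20 and 0.19 and female changes of -0.28, -0.19 and -0.17. Sncg (-1.55 ± 0.34) and Rb1 (-0.34 ± 0.08) completed the named genes.

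Penk was at 914 ± 206 CPM in exposed and 877 ± 183 CPM in control males (0.06 ± 0.14), and the difference between the sexes was 0.71 ± 0.23 with an edgeR adjusted p of 0.288. Pdyn had 0.00 ± 0.11 in males (difference 0.49 ± 0.19), Drd2 -0.036 ± 0.13 (0.53 ± 0.22) and Nr4a1 0.37 ± 0.20 (0.69 ± 0.33). Of 20 spiny neuron genes 3 were higher in males, with a median of -0.038. Cell cycle genes ran opposite in the sexes, with 19 of 20 lower in females (median -0.35) and 20 of 20 higher in males (median 0.56). Ependymal cilia genes moved with them, at -0.80 in females and 0.31 in males, their part was not tested gene by gene, and the female cell cycle median was -0.006 with the neighbouring tissue scores as covariates.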

How the data were processed

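Bulk RNA of the nucleus accumbens was sequenced; per the labels' protocols, cDNA was made with random hexamers in non-strand-specific libraries, so reads of sense and antisense partners are counted together. The authors deposited a table of raw counts for each gene and library, and these were analysed. The submitters' processing notes name fastp and HISAT2 2.0.5; the counter is not given in the sources used here, nor is the annotation. FPKM columns deposited by the authors served only to compare levels between genes. Of 46505 rows, 720 without a gene name (0.271% to 0.412% of a library's counts over the series) were left out; 45780 of 45785 IDs matched RefSeq GRCr8 with identical start and end, and coordinates are those of the deposited table.

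Titles give the groups. Replicates were numbered by order of deposition. The main test was edgeR 4.0.16 (R 4.3.3; TMM, filterByExpr, quasi-likelihood F test, two-sided) on the 29 P42 libraries with 4 group means, in 24741 genes, with Benjamini-Hochberg adjustment over all genes and a threshold of 0.05. CPM use TMM-scaled library sizes. Intervals of folds are 95% (1.96 SE) for each gene alone, with no correction for naming genes by small p. Scores use a prior count of 1. The fit was tested on simulated data. Reads carry no molecular identifiers, and all libraries have 1 batch date in the labels.

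Alternatives were relative log expression size factors, no low-count filter, DESeq2 1.42.0, voom (limma 3.58.1), other sets of libraries, 2 surrogate variables (sva 3.50.0), neighbouring tissue scores as covariates, and leaving out each of the 11 libraries.

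Genes were named by a rule (a symbol, a mean of at least 1 CPM): the 12 smallest p in each direction, 10 in the fit without the 2 doubted libraries, 6 for the difference between sexes, up to 4 per list of 44, the 10 most like Penk, and 18 fixed genes. A few of them are not reported here. Slc17a7 was added after its values were seen. The comparison, lists and named genes were chosen with earlier results of these data known.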

Additional observations from a re-analysis of the deposited data

Results flagged for a closer look

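In 278 sets of values (96 genes and 43 lists, each in the 4 PAE-VEH and the 7 FCL-VEH libraries), 13 had 1 library far from the others of its group by Dixon's criterion; chance alone marks about 1 set in 20. Among PAE-VEH libraries, replicate 2 was high in Pnoc (7.61 CPM, others 5.38 to 5.53) and Egr4 (73.2 CPM, others 30.3 to 37.2). Replicate 4 was high in Bdnf (7.1 CPM, others 0.26 to 0.369) and in the cortical excitatory neuron score (2.17, others -0.64 to -0.40). Replicate 3 was high in Tns3 (146 CPM, the highest of the 4) and in the perineuronal net and brain matrix score (-0.05, others -0.12 to -0.11). Replicate 1 was high in Ajm1 (191 CPM, others 160 to 164).

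Among FCL-VEH libraries, replicate 4 was low in Oprd1 (3.17 CPM, others 4.77 to 5.59) and high in Sall1 (61.1 CPM, others 48.1 to 52). Replicate 1 was high in Tnr (350 CPM, others 281 to 307) and replicate 2 in Lamp5 (125 CPM, others 80.1 to 98.5). The library labelled replicate 5 was low in the circadian clock score (-0.17, others -0.05 to 0.02). Replicate 7 was high in the choroid plexus score (2.46, others -0.63 to 0.39).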

How the results depend on the processing

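No paired analysis was possible because the labels give no replicate numbers, and those used here follow the order of deposition. The count of genes past the threshold in females was 0 in each direction under every alternative run with edgeR, leaving out each of the 11 libraries included (0 to 0); voom gave 28 higher and 8 lower, and DESeq2 45 and 41. For the difference between the sexes, leaving out 1 female library gave 0 to 4 above and 0 to 3 below, leaving out the 3 libraries against their titles gave 1 above, voom gave 51 and 30, and DESeq2 38 and 34. Of 2016 alternative values of the 96 named genes, 1959 kept their direction and their side of the threshold, 51 passed it (32 by DESeq2, 19 by voom) and 6 reversed: Maob with 2 surrogate variables (0.032), and Bdnf without both doubted libraries (-2.35), without PAE-VEH replicate 4 (-2.29), with covariates (-0.87), with surrogate variables (-1.01) and by voom (-1.3); over single libraries left out Bdnf ran from -2.29 to 0.73. Of 817 alternative list medians 14 moved beyond the spread between libraries. With PAE-VEH replicate 4 left out, cortical genes had -0.96 (range over single libraries left out -0.96 to 0.94), GABAergic interneuron genes -0.038 (-0.038 to 0.34) and opioid genes 0.14 (0.14 to 0.28); without both libraries the first 2 had -1.03 and 0.018. With covariates, opioid genes had 0.11, ependymal -0.040, choroid plexus 0.021, septal -0.001 and retinoid genes 0.055; with surrogate variables, opioid genes had 0.12, ependymal 0.017, choroid plexus 0.010 and cell cycle genes 0.15. Because the covariates include the septal and ependymal scores, their own lists move by construction; otherwise the cause was not tested. With 4 libraries in a group, genes at a few CPM such as Il15 and Bdnf are the least precise.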
